A study of Mus musculus with 6 samples.

Results

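Gpr179, Gpr158 and the R7 RGS complex are 8 genes for parts of related signalling complexes. They are the receptors Gpr179 and Gpr158, the regulators of G protein signalling Rgs6, Rgs7, Rgs9 and Rgs11, their shared beta subunit Gnb5, and the membrane anchor Rgs7bp. They were picked by gene symbol from the 54429 gene entries of each library, and all 8 were found and passed the filter on low counts. The choice used the comparison described here, because Gpr179 was already known to be higher in the libraries labelled Kmt5b shRNA. The differences between groups of the 8 members are therefore given as a description. Their count of calls is printed once beside that of all genes, and nothing is read from it.

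RNA was taken from the prefrontal cortex of mice 6 to 8 weeks old that had received the adeno-associated virus AAV9. In 3 libraries the virus carried green fluorescent protein (GFP), and in 3 it carried a short hairpin RNA (shRNA) against Kmt5b, a histone methyltransferase gene; the latter are called hairpin libraries here after their label, Kmt5b shRNA. The sample labels give the mice as C57BL6/J, the design text as C57BL/6 x C3H, and neither names the promoter of the virus or the time since injection. The design text counts 2 control mice against 3 labelled GFP libraries, so a pair of these libraries may share a mouse, and p-values measure only the spread between these libraries. No library is labelled as carrying a control hairpin.

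Both groups were bulk tissue with 29490771 to 74723284 counts per library. Kmt5b itself stood at 79.7 to 86.5 CPM (counts scaled to library size) in the GFP libraries and at 63.9 to 80.3 CPM in the hairpin libraries, where replicate 2 lay inside the GFP range, so each direction rests on the labels. The Kmt5b log2 fold change was -0.22 ± 0.10 (SE), with a 95% interval from -0.44 to 0.004, and edgeR did not call it. Processed pseudogenes took 1.30% to 1.33% of counts in the GFP libraries and 0.303% to 0.315% in the hairpin libraries. This share separated the groups completely, so whatever lies behind it cannot be told apart from the group labels. Its part in the differences below, that of Gpr179 included, was not tested. Of the marker lists, excitatory neuron genes summed to 2322 to 2745 CPM in the GFP against 2624 to 2861 CPM in the hairpin libraries. Astrocyte markers summed to 4147 to 4319 against 3614 to 4061 CPM, and oligodendrocyte markers to 2700 to 4123 against 1480 to 3123 CPM. The excitatory neuron and oligodendrocyte ranges overlapped between groups, and edgeR called 0 of 6 and 0 of 7 of their genes. All 7 oligodendrocyte genes had a log2 fold change below 0, with a median of -0.42. Of the 6 excitatory neuron genes 5 had one above 0, with a median of 0.14. Of 6 astrocyte genes 2 were called lower and 5 had a log2 fold change below 0, while that of Gfap was 0.39. In bulk tissue, fewer cells of a type and less RNA per cell cannot be told apart, and the part of these differences in the values below was not tested.

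RGS proteins speed up the hydrolysis of GTP by G protein alpha subunits and so shorten signals from receptors. Those of the R7 group act on the Gi/o class, are stable only when bound to the G protein beta subunit encoded by Gnb5, and are held at membranes by Rgs7bp or by Rgs9bp. Gpr158 and Gpr179 are related receptors of class C that recruit these complexes. Gpr179 is best known from the ON bipolar cells of the retina, where its loss causes a form of night blindness, and Gpr158 from neurons of the cortex, where it has been tied to stress responses.

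The receptors have unlike sequence in front of their genes, shown here because Gpr179 is the member with the large difference in level and Gpr158 is the other receptor. Bases are printed 5′ to 3′ on the strand of the gene, with every CG dinucleotide in capitals. They come from RefSeq start sites on GRCm38.p6, the mm10 assembly, and stop before the first annotated transcribed base. The Gpr179 stretch is chr11:97352357-97352606 on the minus strand, before the RefSeq start at 97352356, which lies upstream of the GENCODE start at 97352077. That of Gpr158 is chr2:21367317-21367541 on the plus strand.
Gpr179: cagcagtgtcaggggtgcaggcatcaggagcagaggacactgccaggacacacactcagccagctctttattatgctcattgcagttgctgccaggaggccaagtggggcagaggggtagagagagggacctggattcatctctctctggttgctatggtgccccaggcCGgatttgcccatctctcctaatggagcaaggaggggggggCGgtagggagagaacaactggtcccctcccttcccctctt
Gpr158: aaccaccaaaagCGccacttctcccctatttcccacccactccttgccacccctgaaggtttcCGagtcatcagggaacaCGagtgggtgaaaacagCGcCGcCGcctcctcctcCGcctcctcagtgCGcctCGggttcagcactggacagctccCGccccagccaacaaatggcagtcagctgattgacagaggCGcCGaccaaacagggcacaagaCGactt

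Gpr179 had 2 CG dinucleotides in the 250 bases before its start, the fewest of the 7 members with an entry (all but Rgs11), and 18.8% of all 32851 RefSeq windows held fewer. Gpr158 had 14 in its full window, as did Rgs9, while Rgs6 had 18 and Rgs7 22. The Rgs6 window lies before a RefSeq start at 82617499, inside the GENCODE gene body, which begins at 82588292. Gnb5 had 3 and Rgs7bp had 5, against a median of 6 over all windows. The GC box letters GGGCGG, which contain a CG and were searched on both strands, were found before Gpr179, Gpr158 and Rgs9 and in 32.7% of all windows. The TATA box letters TATAAA were found before Rgs9 and Gnb5 and in 12.4% of all windows. TAATCC, the core bound by the retinal factors OTX2 and CRX, was found before Gnb5 alone of the 7 and in 6.25% of all windows.

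Gpr179 was the member that stood apart. Its gene lies on chromosome 11 from 97332109 to 97352077 (mm10, minus strand). The GFP libraries held 66, 42 and 126 Gpr179 counts and the hairpin libraries 369, 215 and 513. Scaled to library size these were 0.987, 1.37 and 1.61 CPM against 6.48, 4.63 and 9.35 CPM. The groups did not overlap, and within the hairpin group replicate 3 was highest and replicate 2 lowest. Means were 1.32 ± 0.314 CPM and 6.82 ± 2.38 CPM (SD, n = 3 each), with a log2 fold change of 2.37 ± 0.28 (SE). This is 5.16-fold higher in the hairpin libraries, with a 95% interval of 3.41 to 7.80. Of 15778 protein-coding genes tested, 66 had a larger log2 fold change.

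Gpr158 showed a small difference the other way. This receptor, on chromosome 2 from 21367542 to 21830547, had 231, 249.5 and 229 CPM in the GFP libraries. In the hairpin libraries it had 209, 215 and 195 CPM. Every hairpin library was below every GFP library, although the log2 fold change of -0.20 ± 0.10 (SE) had a 95% interval from -0.40 to 0.01. An antisense gene, Gm13327, overlaps Gpr158 and had at most 8 counts in a library. The ratio of Gpr158 to Gpr179, per kb of exon, was 274, 213 and 166 with GFP and 37.6, 54.4 and 24.3 with the hairpin. Most of that shift lay in Gpr179, while Gpr158 remained far the more abundant receptor in each library.

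**Figure D1:**
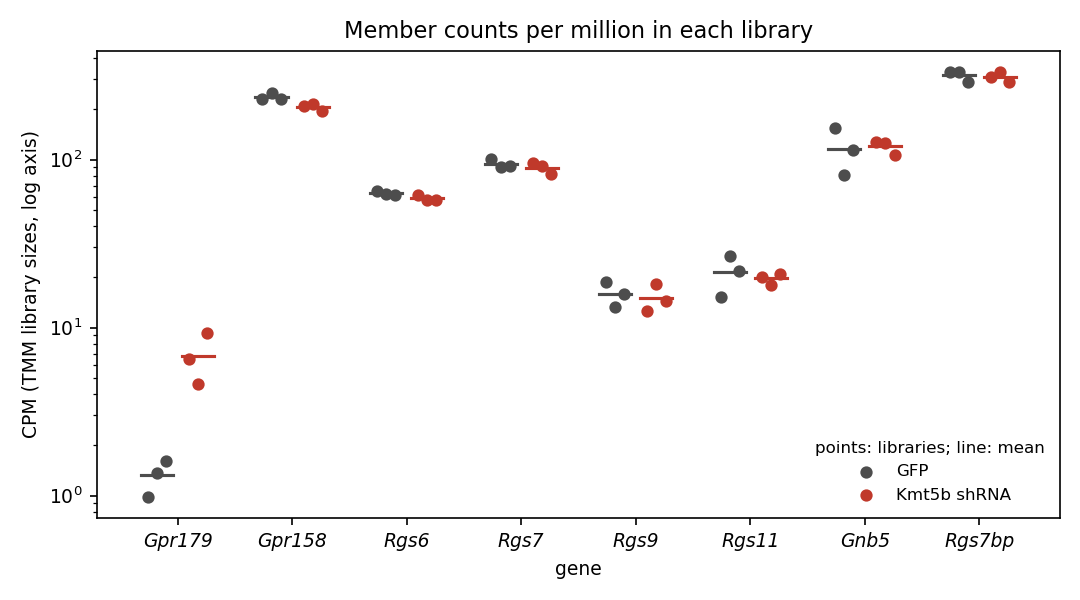
CPM of the 8 genes on a log axis, with 1 point per library and a line at the group mean (grey GFP, red Kmt5b shRNA). Gpr179 runs from 0.987 to 1.61 CPM in GFP and from 4.63 to 9.35 CPM in Kmt5b shRNA libraries, while the points of the other genes lie close together or overlap.

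Among the R7 regulators, Rgs7 (chromosome 1 from 175059087 to 175492500), a neuronal one, had 100.6, 90.7 and 91.1 CPM in the GFP libraries. It had 96.1, 91.1 and 81.8 CPM in the hairpin libraries, so the groups overlapped. The Rgs7 log2 fold change was -0.07 ± 0.10 (SE), with a 95% interval from -0.28 to 0.14.

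Rgs6 (chromosome 12 from 82588292 to 83162056), a close relative also known for shortening muscarinic signals in the heart, had 65.0, 62.2 and 62.0 CPM against 61.3, 57.3 and 57.7 CPM. Its groups did not overlap but lay within a narrow band, with a log2 fold change of -0.10 ± 0.09 (SE).

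Rgs9 (chromosome 11 from 109225355 to 109298129), whose long form is the striatal R7 protein and whose short form serves photoreceptors, had 18.7, 13.3 and 15.9 CPM in the GFP libraries. It had 12.5, 18.1 and 14.3 CPM in the hairpin libraries, and the log2 fold change was -0.10 ± 0.16 (SE). The search capped the matches kept per transcript, so Rgs9 transcripts matched at least 351 other genes (at least 90% identity). The longest of these matches was 183 nucleotides, and reads in such stretches are uncertain. The striatal marker list, which includes Rgs9, summed to 205 to 220.0 CPM with GFP and 219 to 236 CPM with the hairpin. Within that sum Pde10a, called higher by edgeR, had a mean of 85.4 CPM with GFP and 115.7 CPM with the hairpin. Of the 9 list genes tested, 6 had a log2 fold change below 0, and the median was -0.10. The part of this list in the Rgs9 spread was not tested.

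Rgs11 (chromosome 17 from 26202951 to 26211324), the R7 member paired with Rgs7 in retinal bipolar cells, had 15.2, 26.8 and 21.8 CPM in the GFP libraries. The hairpin libraries held 20.0, 18.0 and 20.9 CPM, all inside the GFP range. Its log2 fold change was -0.11 ± 0.17 (SE). Rgs11 shares 138 exonic bases with Arhgdig on the opposite strand, and the strand setting of the counting is not given in the sources used here, so reads in that stretch cannot be told apart.

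Gnb5 (chromosome 9 from 75306288 to 75345876), the obligate partner of all 4 regulators, was the most variable member within the GFP group. It had 154, 80.9 and 113 CPM there and 128, 125 and 106 CPM in the hairpin libraries. Its SD was 36.7 CPM in the GFP and 11.7 CPM in the hairpin libraries (n = 3 each). The log2 fold change was 0.04 ± 0.21 (SE), with a 95% interval from -0.45 to 0.53, the widest of the 7 genes other than Gpr179. An antisense gene, Gm19531, shares 248 exonic bases with Gnb5 and lay between 2.81 and 3.18 CPM in all 6 libraries.

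Rgs7bp (chromosome 13 from 104945904 to 105054930), the anchor, was the most abundant member by counts. It had 332, 332 and 289.9 CPM with GFP and 311, 332 and 289 CPM with the hairpin. These ranges nearly coincided, with a log2 fold change of -0.03 ± 0.10 (SE) and a 95% interval from -0.25 to 0.19.

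By the rule applied to all genes, a Benjamini-Hochberg adjusted p under 0.05 in edgeR's quasi-likelihood test, 1 of 8 members was called, against 8.46% of the 24419 genes tested. In edgeR 2.77% of all genes were called higher and 5.69% lower. All 8 members are protein-coding, and of 15778 protein-coding genes 5.32% were called, 591 higher and 249 lower. The called member is Gpr179, which the choice of members already used. The CPM of the groups did not overlap for 3 of 8 members, Gpr179 upward and Gpr158 and Rgs6 downward. That compares with 22.5% of all genes tested, 9.84% upward and 12.7% downward, and with 20.9% of protein-coding genes. Over the 8 members the median log2 fold change was -0.08, with 6 of 8 below 0, and the median of all genes tested was -0.02.

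**Figure D2:**
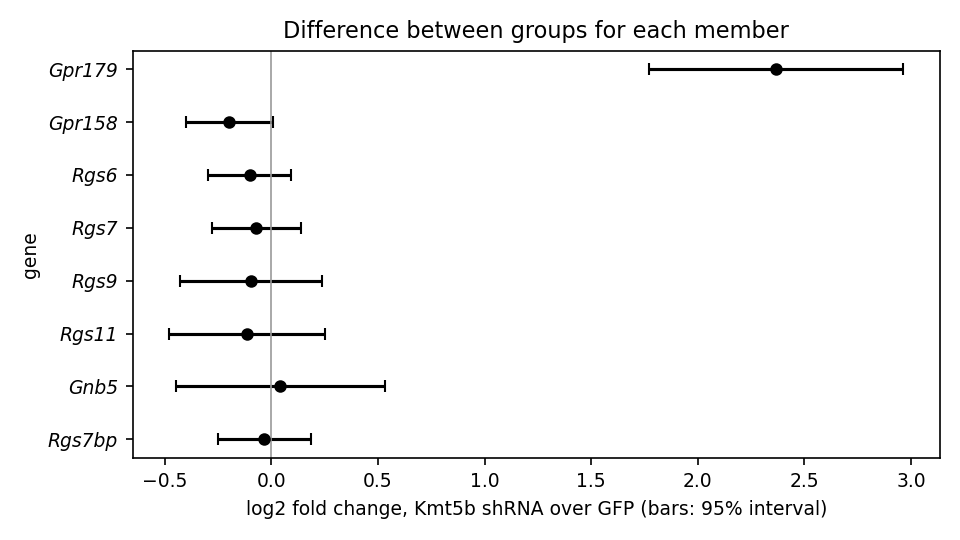
Log2 fold change of each gene, Kmt5b shRNA over GFP, with bars for the 95% interval. Gpr179 lies at 2.37, and the other 7 genes lie between -0.20 and 0.04 with intervals that reach 0.

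Per kb of exon, which allows levels of different genes to be set side by side, the order over the 6 libraries was Rgs7bp, Gnb5, Gpr158, Rgs7, Rgs6, Rgs11, Rgs9 and Gpr179. Rgs7bp averaged 44.9 ± 3.43 CPM per kb in the GFP libraries (SD, n = 3) and Gpr158 29.0 ± 1.37 CPM per kb. The level of Gpr179 was 0.138 ± 0.0329 CPM per kb in the GFP and 0.715 ± 0.249 CPM per kb in the hairpin libraries (SD, n = 3 each). Even its highest library, at 0.980 CPM per kb, was below the lowest Rgs9 library, at 1.96 CPM per kb. Ranges over the 6 libraries overlapped between Rgs7bp and Gnb5, between Gnb5 and Gpr158, and between Rgs6 and Rgs11. They did not overlap between Gpr158 and Rgs7, between Rgs7 and Rgs6, between Rgs11 and Rgs9, or between Rgs9 and Gpr179.

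**Figure D3:**
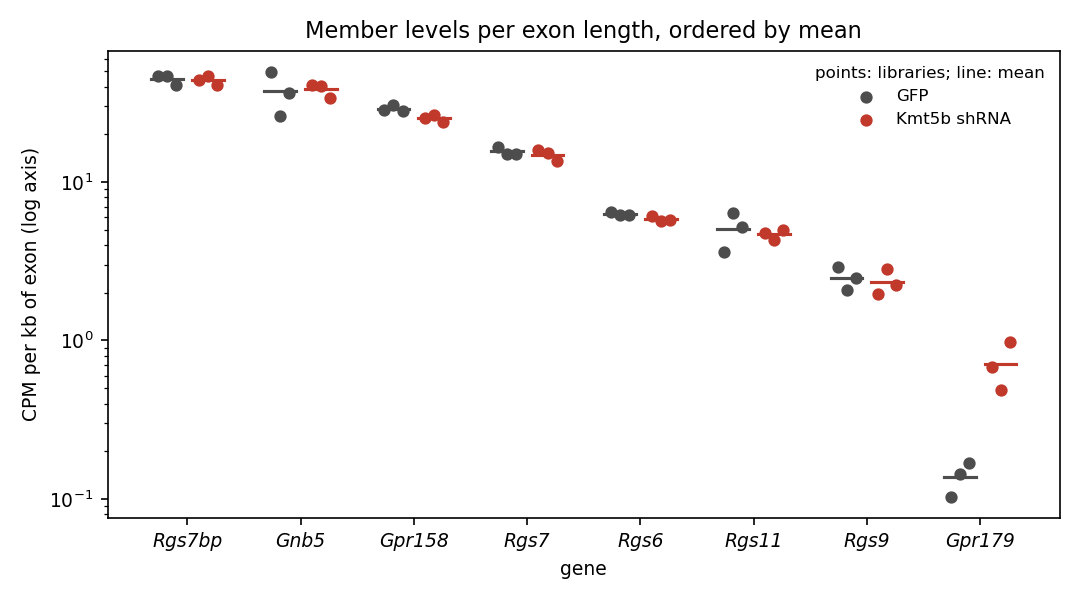
Level of each gene per kb of exon on a log axis, ordered by the mean over 6 libraries, with 1 point per library and a line at the group mean. Gpr179 is the lowest gene in both groups, at 0.138 CPM per kb in GFP and 0.715 in Kmt5b shRNA libraries.

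Rgs7 was the largest share of the R7 group in each of the 6 libraries. Rgs7 made up 56.2%, 50.7% and 52.2% of the length-scaled sum of the 4 regulators with GFP and 55.5%, 54.1% and 51.2% with the hairpin. Rgs6 held 20.4% to 21.8% in all 6. Rgs11 was the most variable, with 12.2% in GFP replicate 1 and 21.5% in GFP replicate 2. The ratio of Gnb5 to that sum was 1.66, 0.874 and 1.25 with GFP and 1.43, 1.43 and 1.29 with the hairpin, so GFP replicate 2 was the library with less Gnb5 than R7 RNA. The corresponding ratio for Rgs7bp stayed between 1.41 and 1.68.

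Genes next to Gpr179 were tested to see whether the difference extended along the chromosome. Of its 6 nearest protein-coding neighbours, 0 were called by edgeR or DESeq2, and 0 had an unadjusted p under 0.05 in edgeR. Mrpl45, a mitochondrial ribosomal protein gene that ends 2.19 kb away on the other strand, had 33.3 ± 3.80 CPM in the GFP and 28.2 ± 3.38 CPM in the hairpin libraries (SD, n = 3 each). The log2 fold change of Mrpl45, -0.24 ± 0.12 (SE), had an edgeR adjusted p of 0.325. Socs7, a suppressor of cytokine signalling 10.5 kb away on the side of the Gpr179 start, had a log2 fold change of 0.15 ± 0.10 (SE, edgeR adjusted p = 0.525). The aminopeptidase gene Npepps, the import receptor gene Kpnb1, Arhgap23 and 4933428G20Rik had log2 fold changes from -0.05 to 0.04. No annotated gene overlapped Gpr179 on either strand.

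**Figure D4:**
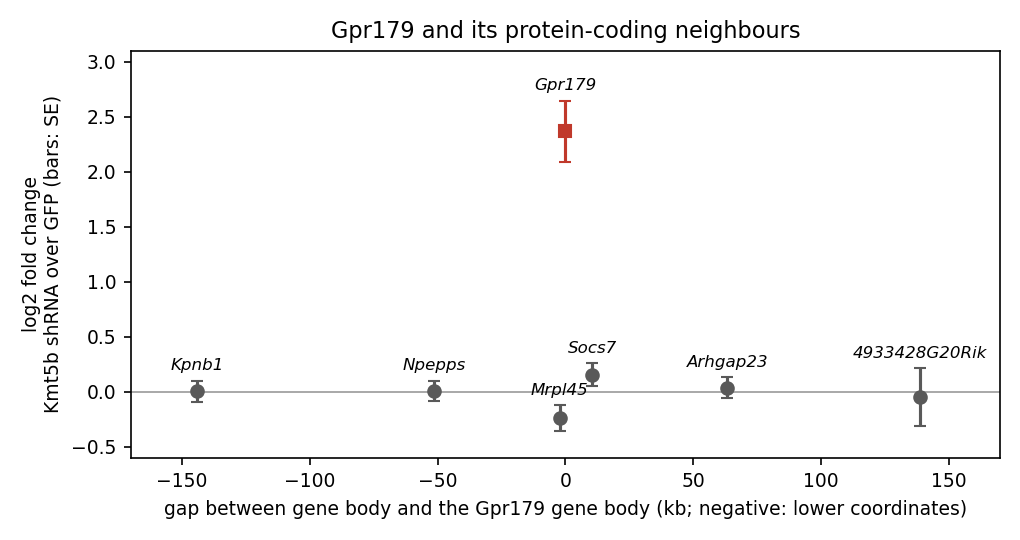
Log2 fold change of Gpr179 (red square) and its 6 nearest protein-coding genes (grey circles), Kmt5b shRNA over GFP, against the gap to the Gpr179 gene body in kb, with bars for the SE. Gpr179 lies at 2.37 and its neighbours lie between -0.24 and 0.15.

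Around all 8 members, 1 of 41 tested neighbours passed, which is 2.44% against 8.46% of all genes and 5.32% of protein-coding genes. It was Arpp19, a phosphatase inhibitor gene 246 kb from Gnb5, with 384.7 ± 63.5 CPM in the GFP and 518 ± 11.4 CPM in the hairpin libraries (SD, n = 3 each). Arpp19 rose by 0.43 ± 0.12 (SE) on the log2 scale (edgeR adjusted p = 0.0327). With GFP replicate 2 or 3 left out, its edgeR adjusted p became 0.134 or 0.112, and with hairpin replicate 1, 2 or 3 left out 0.108, 0.0851 or 0.0664. Among protein-coding genes alone it was 0.0512 by edgeR.

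Genes whose pattern over the 6 libraries was closest to that of Gpr179 were found by the root mean square difference of centred log2 CPM, among named protein-coding genes outside the 8. Kcne1l, a potassium channel accessory subunit gene, was closest at 0.18. It had 2.15, 3.84 and 3.20 CPM in the GFP and 12.2, 9.73 and 19.9 CPM in the hairpin libraries. These genes were picked for their likeness to Gpr179, so a shared group difference or replicate order follows from the choice. Btg3, Nutf2, Galr1 and Tuba1c followed at 0.30, 0.31, 0.32 and 0.32. Galr1, a galanin receptor, rested on 2, 2 and 4 counts against 13, 15 and 24. Nutf2 and Tuba1c matched 5 and 12 annotated pseudogenes and Btg3 matched 1 (at least 90% identity over 100 nucleotides), and genes with such copies carry uncertain counts. Gpr179, Kcne1l and Galr1 matched 0.

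Other genes of the pathway were taken from 8 lists, with 100 of 119 genes tested. Of these, 2 were higher and 1 was lower, or 3% called, against 8.46% of all genes and 5.32% of protein-coding genes. At an unadjusted p under 0.05 there were 14, and DESeq2 called 3. Their median log2 fold change was 0.05.

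Grm6, Trpm1 and Rgs9bp, partners of Gpr179 in ON bipolar cells, had few counts in this tissue. Counts of the glutamate receptor Grm6 were 0, 4 and 0 with GFP and 3, 2 and 0 with the hairpin. The bipolar cell channel Trpm1 had 26, 17 and 36 counts against 17, 4 and 12, a log2 fold change of -1.17 ± 0.52 (SE, edgeR adjusted p = 0.247). Rgs9bp, the second R7 anchor, had 28, 32 and 28 counts against 15, 27 and 24. In this list 0 of 10 tested genes passed in edgeR or DESeq2, 1 had an unadjusted p under 0.05, and the median was -0.19.

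Of 13 ligands and signalling partners of Gpr158, 11 had enough counts to be tested. Gpc4, a heparan sulphate proteoglycan that binds Gpr158 at synapses, had 8.99 ± 1.33 CPM in the GFP and 10.1 ± 1.09 CPM in the hairpin libraries (SD, n = 3 each; edgeR adjusted p = 0.658). The largest difference of this list was in the glypican Gpc5, with a log2 fold change of -0.34 ± 0.13 (SE, edgeR adjusted p = 0.158). Of its 11 tested genes 0 passed in edgeR or DESeq2 and 1 had an unadjusted p under 0.05, with a median of 0.02.

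Among the G protein alpha subunits, 13 of 14 had enough counts to be tested. Gnao1, the main Go subunit of brain, had 327 ± 6.05 CPM against 310.3 ± 7.49 CPM (SD, n = 3 each), with a log2 fold change of -0.07 ± 0.09 (SE, edgeR adjusted p = 0.786). Alpha subunits had a median of 0.05, with 0 of 13 passing in edgeR or DESeq2, 1 at an unadjusted p under 0.05, and the largest log2 fold change in Gnat2 (0.42 ± 0.46, SE). Among 14 other beta and gamma subunits, 1 passed and 2 had an unadjusted p under 0.05 in edgeR. The gene that passed was Gng5, which rose. It had 6.46 ± 1.03 CPM in the GFP and 11.7 ± 0.791 CPM in the hairpin libraries (SD, n = 3 each), with a log2 fold change of 0.86 ± 0.15 (SE, edgeR adjusted p = 0.00123). Gng5 matched 6 annotated pseudogenes, so its counts are uncertain.

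RGS genes outside the R7 group had a median log2 fold change of 0.11. Of 17 tested, 1 passed and 3 had an unadjusted p under 0.05 in edgeR. Rgs1, known from lymphocytes, had 100, 50 and 218 counts in the GFP and 35, 41 and 59 in the hairpin libraries. Rgs1 fell by 1.21 ± 0.33 (SE) on the log2 scale (edgeR adjusted p = 0.0307). Without GFP replicate 3 the Rgs1 log2 fold change was -0.86 (adjusted p = 0.219), and the adjusted p was 0.165 and 0.0660 without hairpin replicates 1 and 2 and 0.0855 among protein-coding genes alone. Rgs4, the most abundant RGS gene of the list by counts, had a log2 fold change of 0.33 ± 0.12 (SE, edgeR adjusted p = 0.146).

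Receptors that signal through Gi/o had a median of 0.09. Of 20 tested, 1 passed and 4 had an unadjusted p under 0.05 in edgeR. The adrenergic receptor gene Adra2c had 14.4 ± 2.62 CPM in the GFP and 20.0 ± 1.09 CPM in the hairpin libraries (SD, n = 3 each), and rose by 0.48 ± 0.13 (SE) on the log2 scale (edgeR adjusted p = 0.0390). With GFP replicate 2 or 3 left out, the edgeR adjusted p of Adra2c became 0.0936 or 0.184, and with hairpin replicate 1, 2 or 3 left out 0.175, 0.0526 or 0.0639. Among protein-coding genes alone it was 0.0661 by edgeR. Drd2 had the largest log2 fold change of this list, -0.48 ± 0.31 (SE, edgeR adjusted p = 0.512).

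Effectors and the other class C receptors gave no calls. GIRK channel and adenylyl cyclase genes had a median of -0.01 with 0 of 12 passing in edgeR or DESeq2 and 1 at an unadjusted p under 0.05. That gene was Adcy9, with 108 ± 4.27 CPM against 90.3 ± 4.64 CPM (SD, n = 3 each) and a log2 fold change of -0.26 ± 0.09 (SE, edgeR adjusted p = 0.117). Among the other class C receptors 0 of 4 tested genes passed in edgeR or DESeq2 and 1 had an unadjusted p under 0.05. It was the calcium-sensing receptor Casr, at 54, 8 and 48 counts against 10, 17 and 15, with a log2 fold change of -1.10 ± 0.49 (SE, edgeR adjusted p = 0.256).

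**Figure D5:**
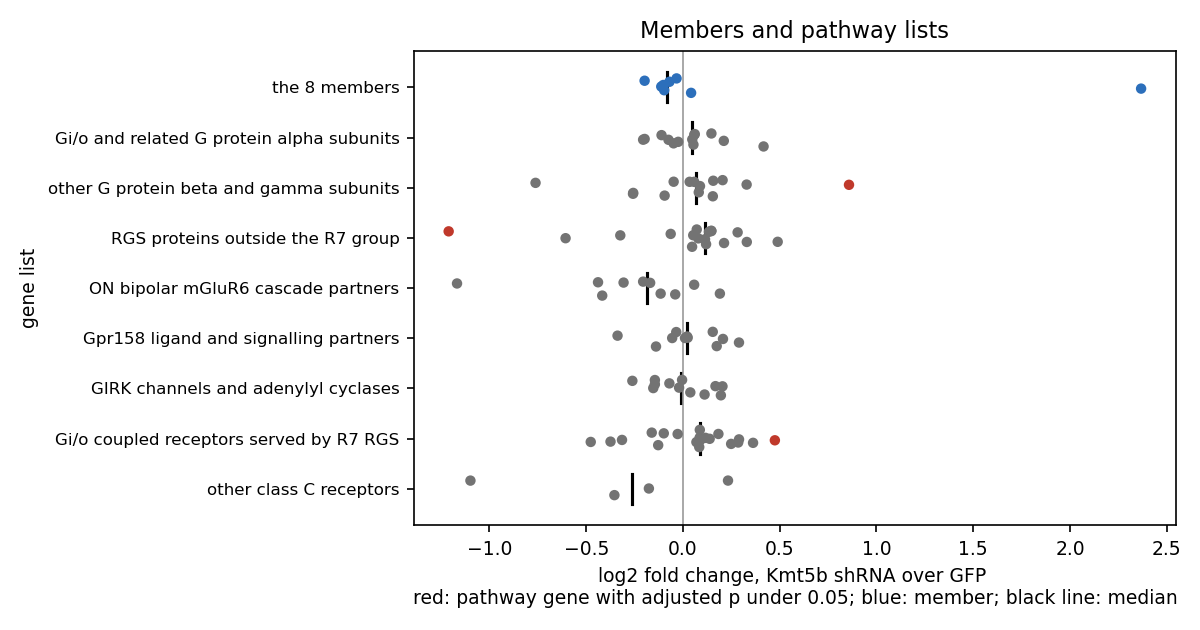
Log2 fold change of each tested gene, Kmt5b shRNA over GFP, in 8 pathway lists (grey, red where the adjusted p was under 0.05) and of the 8 members (blue), with a black line at each median. Gpr179 at 2.37 lies to the right of every pathway gene, and the called pathway genes are Gng5, Rgs1 and Adra2c.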

How the data were processed

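Ribosome-depleted total RNA was sequenced on an Illumina HiSeq instrument, per the labels' protocols. The authors deposited whole-number read counts for each gene symbol, not normalized. The submitters' processing notes name STAR, featureCounts, DESeq2 and mm10, while the labels' protocols name Cutadapt and TopHat2, and neither gives versions. Titles gave each library its group and number.

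The test used edgeR 4.0.16 (R 4.3.3) with filterByExpr, TMM scaling and a robust quasi-likelihood fit (legacy=TRUE) over 24419 genes, with Benjamini-Hochberg adjusted p under 0.05 called. CPM used TMM library sizes. An SE was taken as the size of the log2 fold change over the root of its F statistic, and intervals are 95%. The fit was also run on simulated counts with the same dispersion for every gene and independent libraries. That run does not cover the spread between these replicates or libraries that share a mouse. Gene positions, types and exon lengths came from GENCODE M21 (mm10), which matched 53749 of 54429 rows by symbol. Sequence matches used BLAST+ 2.17.0 at 90% identity over 100 nucleotides. Start windows came from RefSeq and held 7 of the 8 members.

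The members and lists were chosen with earlier results of these data known. Named genes were the members, Kmt5b, neighbours of Gpr179, passing neighbours and list genes, the largest change of each list, and the 5 genes closest to Gpr179 (log2 CPM, prior count 2). Gpc4, Gnao1, Grm6, Rgs9bp, Rgs4 and the markers Gfap and Pde10a were added after their values were seen. Alternatives were DESeq2 1.42.0, its size factors, no filter, protein-coding genes alone, a replicate block, each library left out, and longest transcripts for length.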

Additional observations from a re-analysis of the deposited data

How the results depend on the processing

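The Gpr179 log2 fold change lay between 2.08 and 2.58 in all 11 alternatives, the ends being without Kmt5b shRNA replicates 3 and 2. The other 7 members moved by less than their spread between replicates in these alternatives, although the sign of Rgs7, Rgs9, Rgs11, Gnb5 and Rgs7bp changed in some of them. With protein-coding genes alone, 471 genes were higher and 184 lower, in place of 676 and 1390. That fit left out every other class of gene, and of the same 15778 protein-coding genes the fit of all genes called 591 higher and 249 lower. The fit of protein-coding genes called 1 pathway gene and 0 neighbours, while the fit with no filter called 7 pathway genes and DESeq2 called 2 neighbours. The cause was not tested. Leaving out 1 library gave 467 to 822 genes higher, 1229 to 1510 lower, 1 to 4 pathway genes and 0 to 1 neighbours. With the replicate block, 704 genes were higher and 1507 lower and the Gpr179 log2 fold change was 2.37. Same-numbered libraries did not deviate together throughout (correlations of -0.03, -0.01 and 0.22), and differently numbered ones had correlations from -0.20 to 0.21. The numbers were therefore not taken to pair mice. With the block Gng5, Rgs1, Adra2c and Arpp19 still passed. With the longest transcript as length, Gnb5 at 55.2 CPM per kb in the GFP libraries came before Rgs7bp at 44.9. The ranges of Gpr158 and Rgs7 then overlapped while those of Rgs6 and Rgs11 did not. For Rgs7 the longest annotated transcript has 1 exon and 3678 bases, and the overlap with Gpr158 rests on that length. At 42 to 126 counts, the Gpr179 level in the GFP libraries rests on fewer counts than that of any other member.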
